A study of Sus scrofa with 35 samples.

Results

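Caspases are cysteine proteases that cut their substrates after aspartate residues. They were followed here in whole blood from pigs kept at thermoneutrality (TN) or submitted to heat stress (HS), across 7 genes: CASP1, CASP2, CASP4, CASP6, CASP8, CASP9 and CASP10. The members were taken by name alone, as every non-control probe whose gene name in the scanner files was one of these symbols. This gave 13 probes for 5 of the 7 genes, out of 60305 probes on the array. All 13 were among the 39072 probes of the deposited normalised table, with 6 probes for CASP10, 3 for CASP8, 2 for CASP1, and 1 each for CASP2 and CASP9. CASP4 and CASP6 had no probe of that name and were not analysed here.

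The blood came from 35 castrated growing pigs of 3 breeds, Creole (CR), Large White (LW) and their F1 cross, with 1 one-colour array per pig. Each breed was split between TN (24 °C) and HS, with 5 pigs for CR at TN and 6 pigs in each of the 5 other groups. The sample labels give 30 °C for the HS pigs, whereas the protocol text of the same samples gives 5 days at 32 °C. No drug or transgene was involved, all pigs were castrated, and the age at sampling is not in the labels. Every TN pig was slaughtered before the temperature rise and every HS pig after it, so the climate and the day of sampling cannot be told apart. The pigs were housed by pen and came from shared litters according to the methods of the study, but the labels name neither, and each pig was taken as independent in the tests.

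Caspases are made as inactive zymogens until a signalling platform or another caspase activates them. CASP8 and CASP10 are the initiators recruited by FADD to death receptors such as FAS, CASP9 is the initiator activated on the APAF1 apoptosome once cytochrome c has left the mitochondria, and CASP2 is an initiator linked to genotoxic and metabolic stress through CRADD and PIDD1. CASP1 stands apart, since inflammasomes activate it to mature interleukin 1 beta and interleukin 18 and to cleave gasdermin D. An array reads the transcript and not the activated enzyme. In whole blood, fewer cells of a type and less RNA per cell cannot be told apart.

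The probe sequences are shown first because the 6 CASP10 probes fell into sets with different content. One set of 3 starts at bases 2137 or 2141 of the CASP10 transcript record named in the files and holds a run of CAA repeats; these are called the repeat probes below. The 30-base stretches that carry it are given with the 22 bases common to the 3 probes in capitals.
A_72_P133996: agagATAGCAACAACAACAACAACAAaaaa
A_72_P445123: agaaATAGCAACAACAACAACAACAAaaag
A_72_P749225: agaaATAGCAACAACAACAACAACAAcaac
These 22 bases occurred in 6 probes of the array (0.00995% of all probes), and each of the 3 CASP10 probes shared a stretch of at least 20 bases with 7 to 10 probes of other names. The other set starts at bases 496, 629 and 636 of the same record, and none of its probes shared such a stretch with a probe of another name. Within it, A_72_P725243 and A_72_P773513 overlap along most of their length, with a longest identical stretch of 32 bases (capitals), and are not independent readings.
A_72_P725243: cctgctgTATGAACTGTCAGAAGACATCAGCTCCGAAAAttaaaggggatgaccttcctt
A_72_P773513: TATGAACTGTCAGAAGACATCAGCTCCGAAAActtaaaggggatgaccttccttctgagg
A_72_P773508: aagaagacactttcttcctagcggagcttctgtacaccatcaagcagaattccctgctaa
The CASP8 probe and the CASP9 probe that carry the results below are given last, the CASP9 probe by its opening 30 bases. The files name the CASP9 and CASP2 probes through protein entries and not through a pig transcript.
CASP8 A_72_P228337: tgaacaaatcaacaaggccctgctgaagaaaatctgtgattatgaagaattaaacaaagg
CASP9 O4022: gaaaaagcttttcttcaaaacataatgagg

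The arrays themselves differed in ways that touch every value below. The percentage of probes well above background ranged from 55.2% to 68.0% over the 35 arrays, and the 75th percentile of processed intensity from 112 to 329. In F1 pigs the log2 of that percentile averaged 7.21 at TN and 7.88 under HS, a difference of 0.67 (two-sided exact permutation test, p = 0.00649, adjusted p = 0.117 over 27 tests of array measures), whereas the difference was -0.01 in CR and -0.01 in LW. The mean of 17 erythroid marker genes was lower under HS by 1.15 on the log2 scale in F1 (exact permutation p = 0.0216, adjusted p = 0.146), with a range of 10.39 to 12.68 at TN and 9.01 to 11.00 under HS. The same mean differed by -0.57 in CR and -0.37 in LW. None of the 27 tests passed the adjusted threshold of 0.05. No caspase probe was flagged, and all 13 were well above background on all 35 arrays.

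**Figure D1:**
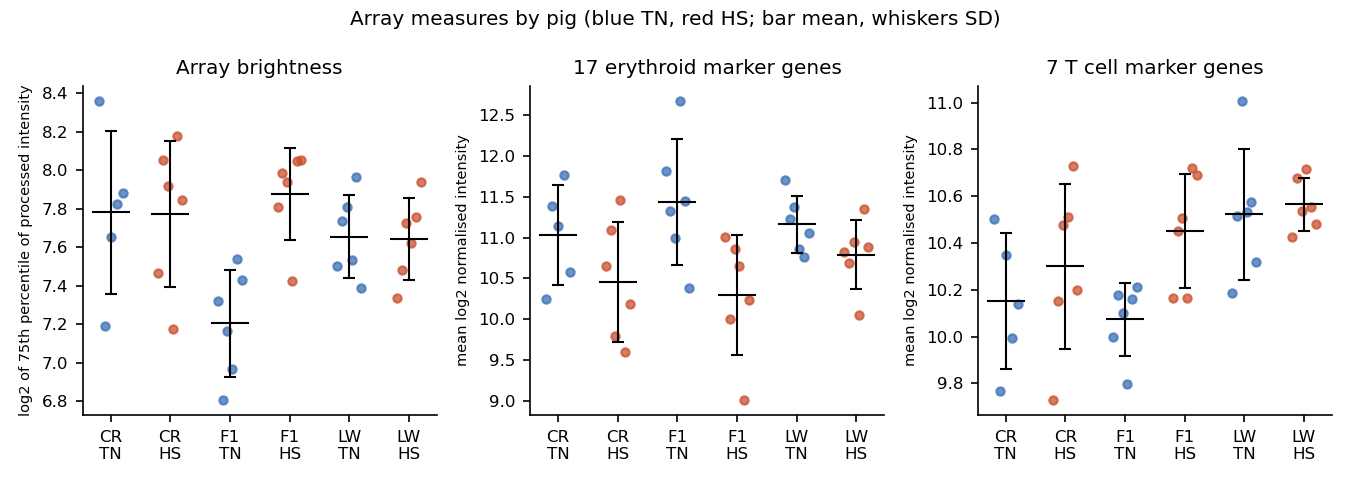
Array measures by group, 1 point per pig (blue TN, red HS; bar, mean; whiskers, SD; n = 5 for CR TN and 6 elsewhere): log2 of the 75th percentile of processed intensity, mean log2 normalised intensity of 17 erythroid marker genes, and the same mean for 7 T cell marker genes. The F1 TN arrays average 7.21 on the brightness scale against 7.88 for F1 HS, and the F1 erythroid mean goes from 11.44 at TN to 10.29 under HS.

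The main question of the design was whether caspase transcripts differed between HS and TN once breed was corrected for. Under HS, the only CASP9 probe was lower and CASP8 and CASP10 were higher on part of their probes, while CASP1 and CASP2 did not pass the threshold. In the additive limma model, 6 of the 13 probes were called differentially expressed, that is with a Benjamini-Hochberg adjusted p under 0.05 over all 39072 probes (46.2%), 5 of them higher and 1 lower. Over all probes of the table, 34.8% were called in this comparison, 20.1% higher and 14.7% lower, and the share among caspases has to be read against that level. Values are log2 differences, HS minus TN, with the standard error of the fit after ±. The log2 difference was positive for 12 of the 13 probes, with a median of 0.22, against 59.8% positive and a median of 0.06 over all 39072 probes. When the probes of a gene were averaged before the fit, 3 of the 5 genes were called, where 10037 of all 28066 names were: CASP9 (-0.68 ± 0.16 SE, adjusted p = 0.00296), CASP10 (0.25 ± 0.08, adjusted p = 0.0151) and CASP8 (0.15 ± 0.05, adjusted p = 0.0241). The CASP10 mean covers 6 probes, of which 3 are the repeat probes, and A_72_P725243 and A_72_P773513 among the others overlap. The 3 repeat probes start at nearly the same base of the record and varied together (r = 0.88 to 0.96). They are therefore not independent readings either, and the counts over 13 probes are not counts of separate members.

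Without the F1 pigs no caspase probe passed the threshold, and neither did any other probe of the table. The sizes changed unequally in that fit: CASP10 A_72_P725243 was at 0.30 as before and CASP8 A_72_P228337 at 0.20 in place of 0.23, whereas CASP9 went from -0.68 to -0.40 and the 3 CASP10 repeat probes from 0.19 to 0.27 down to 0.11 to 0.15. With the erythroid mean as a covariate the count was 0 of 13 caspase probes and 2 of all 39072 probes. With the array brightness as a covariate it was 2 of 13, and 6706 of all probes. The part of red cell content and array brightness in the caspase values was not tested beyond these fits. Leaving out a single pig moved the count between 2 and 7, and it fell to 3 or fewer without CR HS pig 3 (3 probes), CR TN pig 4 (2), F1 HS pig 4 (2), F1 HS pigs 5 and 6 (3 each) or F1 TN pigs 1, 2 and 4 (3 each).

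**Figure D2:**
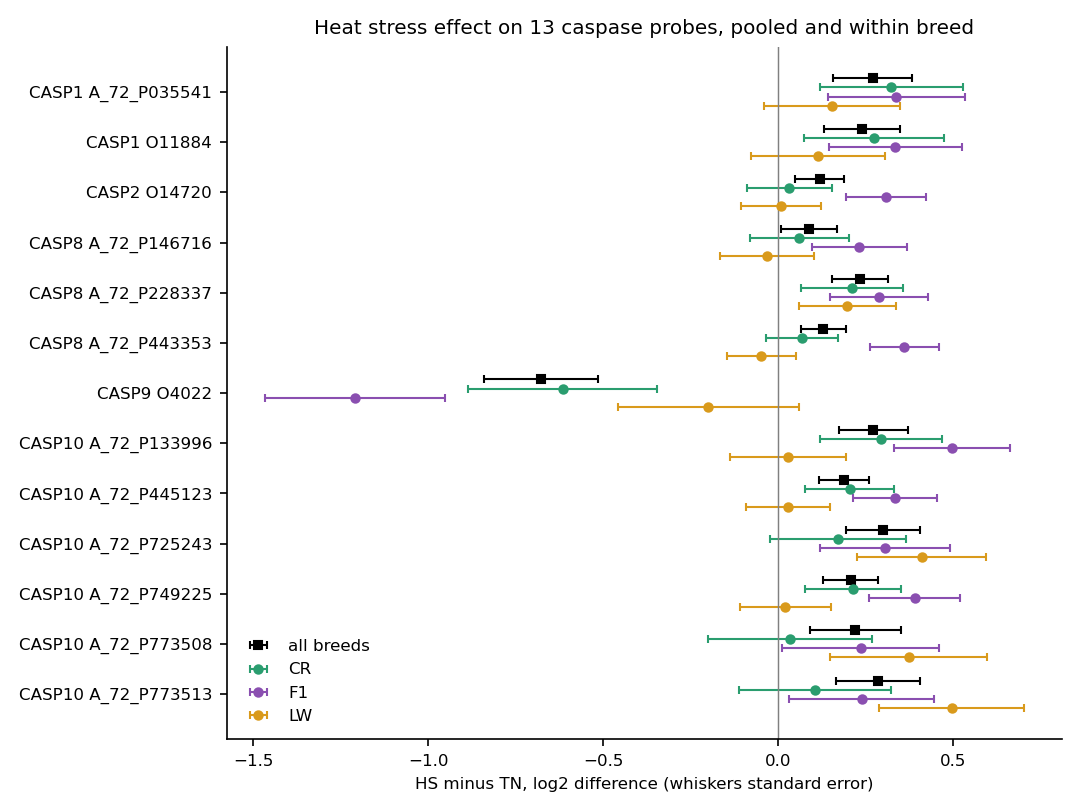
HS minus TN for the 13 caspase probes as a log2 difference, over all breeds (black squares) and within CR, F1 and LW (coloured circles); whiskers are standard errors of the limma fit. CASP9 lies to the left of 0 in every breed, between -1.21 in F1 and -0.20 in LW, and the 3 CASP10 repeat probes lie between 0.33 and 0.50 in F1 and between 0.02 and 0.03 in LW.

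CASP9, the apoptosome initiator, showed the widest difference of the 5 genes and was the only one that was lower under HS. Its normalised log2 intensity in the 5 CR TN pigs was 7.80, 7.93, 8.05, 8.24 and 8.92, and in the 6 CR HS pigs it ran from 6.97 to 8.45 with a median of 7.47. In F1 it ran from 8.27 to 8.83 (median 8.73) at TN and from 6.62 to 8.21 (median 7.47) under HS. In LW it ran from 7.32 to 8.42 (median 8.06) at TN and from 7.56 to 8.20 (median 7.78) under HS. The TN and HS pigs did not overlap in F1 and overlapped in CR and LW. This F1 split was the only one without overlap among the 39 pairs of groups that 13 probes and 3 breeds give. The share of all probes that separate in this way is not given here, and 38.7% of all probes were called within F1. The split is thus not shown to be particular to CASP9. Of the 18 HS pigs, 16 were below the TN mean of their own breed.

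The pooled CASP9 difference was -0.68 ± 0.16 on the log2 scale (adjusted p = 0.00309). Within breeds it was -1.21 ± 0.26 in F1 (adjusted p = 0.000816), -0.62 ± 0.27 in CR (unadjusted p = 0.0293, adjusted p = 0.557) and -0.20 ± 0.26 in LW (adjusted p = 0.809). The F1 effect minus the LW effect was -1.01 ± 0.36 (unadjusted p = 0.00909, adjusted p = 0.128), so a difference between breeds was not established. Of the 5 slides, 4 held enough groups for a value of their own, and all 4 were negative, from -0.91 to -0.19; with the slide as a fixed block the value was -0.67 (adjusted p = 0.00257). The call held in all 35 fits that left out a single pig (-0.74 to -0.61) but not without F1 pigs (-0.40, adjusted p = 0.261) or with the erythroid mean as a covariate (-0.42, adjusted p = 0.168). With array brightness as a covariate it was -0.43 (adjusted p = 0.0168). Within F1, the value was -0.88 with the erythroid covariate (adjusted p = 0.0442) and -0.50 with array brightness, which ended the call (adjusted p = 0.329).

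The CASP9 probe was one of a large block of probes that varied together. Over the 35 arrays, 1738 of the 39071 other probes (4.45%) had a Pearson correlation of at least 0.9 with it, all 1738 had a negative HS minus TN difference and 1735 of them were called. The same count was 12 for the leading CASP10 probe, 2 for CASP1, and 0 for CASP2 and CASP8, the leading probe being the brightest of each gene on average. The 3 gene symbols closest to CASP9 were TBX5 (r = 0.99), a T-box transcription factor of heart and limb development, CES1 (r = 0.99), a carboxylesterase of liver, and CDS1 (r = 0.99), an enzyme of phospholipid synthesis. These correlations share arrays, groups and array brightness, and are given as a description. With the log2 of the 75th percentile itself, the CASP9 probe had r = -0.75, and r = -0.68 once group means were subtracted. The part of array brightness in its difference was not tested beyond the covariate fits.

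**Figure D3:**
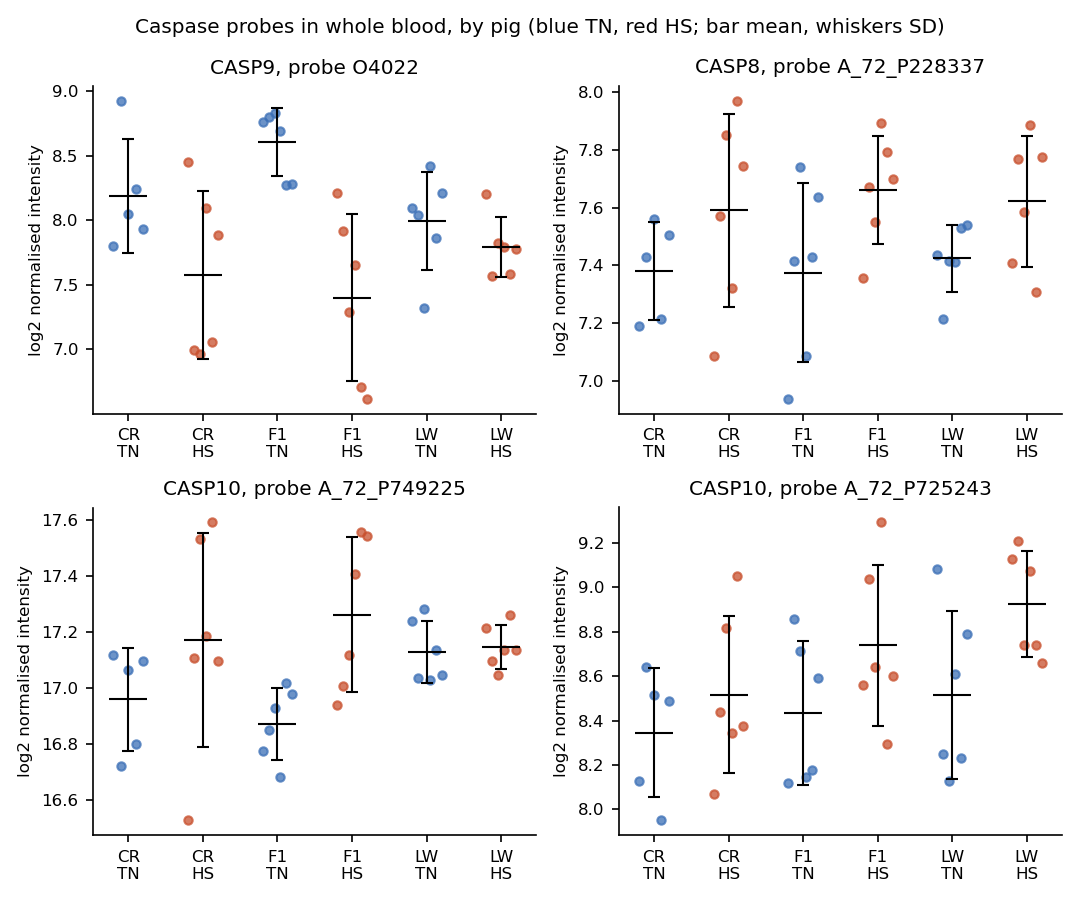
Normalised log2 intensity by group for CASP9 and for 3 probes of CASP8 and CASP10, 1 point per pig (blue TN, red HS; bar, mean; whiskers, SD; n = 5 for CR TN and 6 elsewhere; each panel has its own scale). CASP9 in F1 goes from a mean of 8.61 at TN to 7.40 under HS with no overlap, whereas TN and HS pigs of a breed overlap in every other pair shown.

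CASP8, the death receptor initiator, was higher under HS on 1 of its 3 probes in the pooled comparison. On A_72_P228337 the CR TN pigs had 7.19, 7.21, 7.43, 7.51 and 7.56, and the CR HS pigs 7.09 to 7.97 (median 7.66). The F1 pigs had 6.94 to 7.74 (median 7.42) at TN and 7.36 to 7.89 (median 7.69) under HS, and the LW pigs 7.21 to 7.54 (median 7.43) at TN and 7.31 to 7.89 (median 7.68) under HS. The groups overlapped in every breed, and the upper HS pigs went beyond the highest TN pig in all 3.

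The pooled difference on this probe was 0.23 ± 0.08 (adjusted p = 0.0237), and it was of like size in the breeds, at 0.21 in CR, 0.29 in F1 and 0.20 in LW, none of which passed the threshold alone. The 4 slides gave 0.12 to 0.42, and the call held in all 35 fits that left out a pig. It was lost with the erythroid mean as a covariate (0.07, adjusted p = 0.616), with array brightness as a covariate (0.20, adjusted p = 0.0879), without F1 pigs (0.20, adjusted p = 0.273) and without LW pigs (0.25, adjusted p = 0.0820).

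The 2 other CASP8 probes followed a different course. On A_72_P443353 the F1 pigs had 7.94 to 8.56 at TN and 8.54 to 8.83 under HS, so that all 6 HS pigs were above the TN mean, and the F1 difference was 0.36 ± 0.10 (adjusted p = 0.00540). The call within F1 held in all 35 fits that left out a pig, and was lost with array brightness as a covariate (0.20, adjusted p = 0.391) and with the erythroid covariate (0.33, adjusted p = 0.0590). In CR the difference was 0.07 and in LW -0.05, and pooled it was 0.13 ± 0.06 (adjusted p = 0.108), which crossed the threshold without LW pigs (0.22, adjusted p = 0.0361). For this probe the F1 effect minus the LW effect was 0.41 ± 0.14 (adjusted p = 0.122, the smallest adjusted p that any probe reached in that comparison, where 0% of all probes were called and 8874 had an unadjusted p under 0.05). A_72_P146716 did not pass in any comparison, with 0.09 ± 0.08 pooled (adjusted p = 0.393) and 0.23 ± 0.13 in F1. Over the 35 arrays it went with A_72_P443353 (r = 0.67), while A_72_P228337 went with neither (r = 0.02 and 0.01).

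CASP10, the companion initiator whose gene lies between CFLAR and CASP8 on pig chromosome 15 in the RefSeq annotation of Sscrofa11.1, was higher under HS on 4 of its 6 probes. The group means of the repeat probes lay between 13.40 and 17.26 on the log2 scale, and those of the other set between 8.35 and 9.22. Whether the repeat probes read CASP10 alone was not tested. The 3 repeat probes were all called, at 0.27 ± 0.10 (A_72_P133996, adjusted p = 0.0334), 0.19 ± 0.07 (A_72_P445123, adjusted p = 0.0415) and 0.21 ± 0.08 (A_72_P749225, adjusted p = 0.0384). Of the other set, A_72_P725243 was called at 0.30 ± 0.11 (adjusted p = 0.0294), its overlapping partner A_72_P773513 had 0.28 ± 0.12 (adjusted p = 0.0641) and A_72_P773508 had 0.22 ± 0.13 (adjusted p = 0.181). The breed by climate interaction was not called for any of the 6 (adjusted p of 0.468 to 0.848).

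On A_72_P749225, the leading repeat probe, the CR TN pigs had 16.72, 16.80, 17.06, 17.10 and 17.12, and the CR HS pigs 16.53 to 17.59 (median 17.15). The F1 pigs had 16.68 to 17.02 (median 16.89) at TN and 16.94 to 17.56 (median 17.26) under HS, and all 6 HS pigs were above the TN mean. The LW pigs had 17.03 to 17.28 (median 17.09) at TN and 17.05 to 17.26 (median 17.14) under HS. The F1 groups were thus shifted with a slight overlap, and the LW groups covered nearly the same range.

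Within F1 the repeat probes differed by 0.50 ± 0.17 (A_72_P133996, adjusted p = 0.0188), 0.33 ± 0.12 (A_72_P445123, adjusted p = 0.0290) and 0.39 ± 0.13 (A_72_P749225, adjusted p = 0.0188). In CR they differed by 0.20 to 0.29, and in LW by 0.02 to 0.03, with no call in either breed. Scaling the processed intensity on the 75th percentile of each array lowered the pooled value to 0.05 for A_72_P445123 (adjusted p = 0.565) and 0.05 for A_72_P749225 (adjusted p = 0.550), and left A_72_P133996 called (0.26, adjusted p = 0.0367). All 3 lost the pooled call with the erythroid covariate (0.07 to 0.11), with array brightness as a covariate (0.13 to 0.20), without F1 pigs (0.11 to 0.15) and without CR pigs (0.18 to 0.26), and A_72_P133996 and A_72_P445123 with array weights (0.20 and 0.14). The within-F1 call was lost for A_72_P749225 without F1 HS pig 5 or 6 (0.33 each), for A_72_P445123 without F1 HS pig 5 or 6 or F1 TN pig 1 or 4 (0.26 to 0.31), and for A_72_P133996 without F1 HS pig 6 or F1 TN pig 1 (0.38 to 0.41).

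The pooled calls of the repeat probes also depended on single pigs, all values keeping their sign. A_72_P133996 lost its call without CR HS pig 3, CR TN pig 2 or 4, F1 HS pig 4, 5 or 6, or F1 TN pig 1, 2 or 4 (lowest value 0.23), and A_72_P749225 without any of these 9 or CR HS pig 5 (lowest 0.18). A_72_P445123 lost it without CR HS pig 3, 4 or 5, CR TN pig 2 or 4, F1 HS pig 4, 5 or 6, F1 TN pig 1, 2, 3 or 4, or LW TN pig 2 (lowest 0.16). Of the 10 probes of other names that share at least 20 bases with them, 8 had a positive difference and 3 were called, all higher, over a range of -0.02 to 0.34 (median 0.10). Among all probes 59.8% were positive and 34.8% were called in this comparison, so the share called is near the background.

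The other CASP10 set had its widest differences in LW. On A_72_P725243 the CR TN pigs had 7.95, 8.13, 8.49, 8.51 and 8.64, and the CR HS pigs 8.07 to 9.05 (median 8.41). The F1 pigs had 8.12 to 8.86 (median 8.38) at TN and 8.30 to 9.29 (median 8.62) under HS, and the LW pigs 8.13 to 9.08 (median 8.43) at TN and 8.66 to 9.21 (median 8.91) under HS. All 6 LW HS pigs were above the LW TN mean, and 16 of the 18 HS pigs were above the TN mean of their breed.

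For these probes the LW difference was 0.41 ± 0.19 (A_72_P725243, unadjusted p = 0.0341), 0.49 ± 0.21 (A_72_P773513, unadjusted p = 0.0227) and 0.37 ± 0.22 (A_72_P773508), none past the threshold after adjustment (adjusted p = 0.563 or more). The F1 differences were 0.24 to 0.30 and the CR differences 0.03 to 0.17. The pooled A_72_P725243 call held with array brightness as a covariate (0.36, adjusted p = 0.0251). It was lost with the erythroid covariate (0.23, adjusted p = 0.288), without F1 pigs (0.30, adjusted p = 0.252), without LW pigs (0.24, adjusted p = 0.167), without CR TN pig 4 (0.28) and without F1 HS pig 4 (0.26). A_72_P773513 crossed the threshold without CR pigs (0.37, adjusted p = 0.0293), with array weights (0.33, adjusted p = 0.00991) and in 5 of the fits that left out a pig (0.31 to 0.34). Within the sets the probes varied together (r = 0.88 to 0.96 for the repeat probes, 0.82 to 0.96 for the others), and between the sets r was 0.18 to 0.47.

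**Figure D4:**
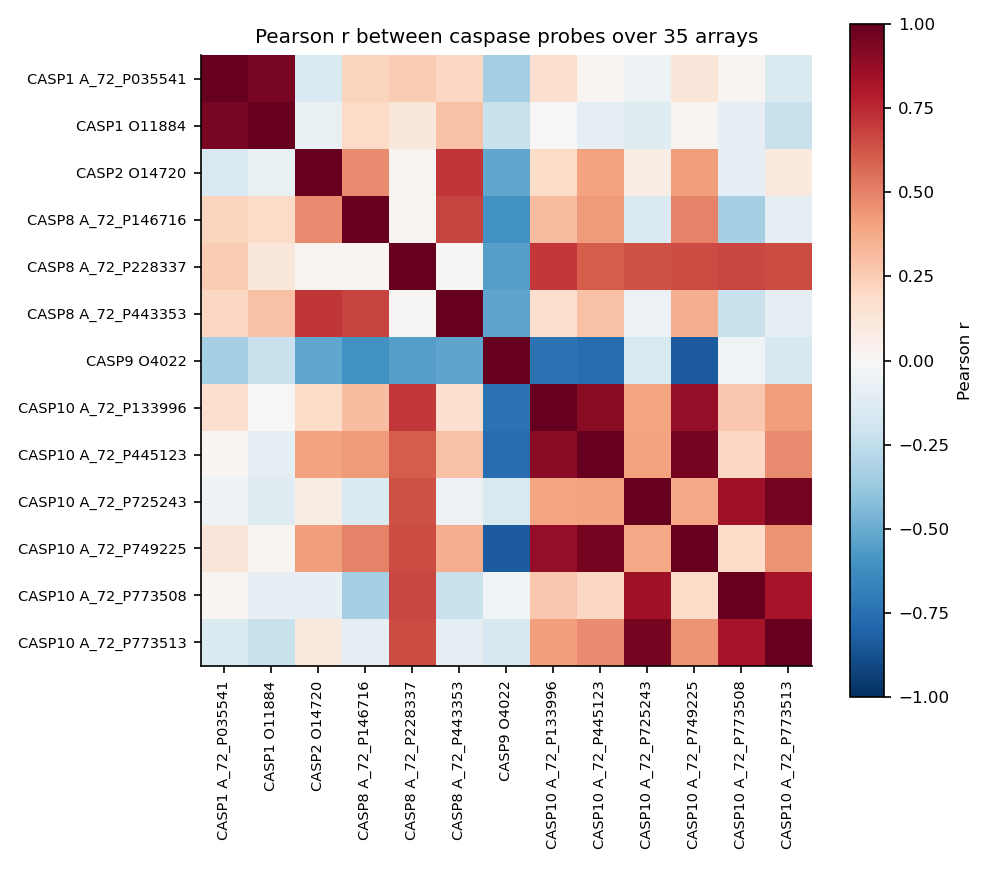
Pearson correlation between the 13 caspase probes over the 35 arrays (colour scale from -1 to 1, 1 row and 1 column per probe). CASP1 probes go together (r = 0.95), the CASP10 probes form 2 blocks, and CASP9 is negative with all 3 repeat probes of CASP10 (r = -0.83 to -0.73).

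CASP1, the inflammasome protease, was higher in most HS pigs without passing the threshold. On A_72_P035541 the CR TN pigs had 9.14, 9.37, 9.56, 9.82 and 10.11 and the CR HS pigs 9.29 to 10.71, the F1 pigs 8.87 to 9.91 at TN and 9.36 to 10.26 under HS, and the LW pigs 8.96 to 9.89 at TN and 9.43 to 9.88 under HS. The groups overlapped in all breeds, and 14 of the 18 HS pigs were above the TN mean of their breed. The pooled difference was 0.27 ± 0.11 on this probe (adjusted p = 0.0586) and 0.24 ± 0.11 on O11884 (adjusted p = 0.0849). Both probes were positive on all 4 slides, from 0.10 to 0.73 and from 0.14 to 0.63. A_72_P035541 crossed the threshold when scaled on the 75th percentile (0.34, adjusted p = 0.0284), with array weights (0.23, adjusted p = 0.0453), and without CR HS pig 4, CR TN pig 5, F1 HS pig 2, F1 TN pig 3 or LW TN pig 3 (0.29 to 0.31), and O11884 without CR HS pig 4 (0.28). Gene symbols close to the leading CASP1 probe, O11884, were LTBR, the lymphotoxin beta receptor, and PLBD1, a phospholipase B-like protein (r = 0.80 each).

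CASP2 was higher under HS in F1 and was not called in the other breeds. The F1 pigs had 10.67 to 11.34 (median 11.02) at TN and 11.09 to 11.48 (median 11.36) under HS, a difference of 0.31 ± 0.11 (adjusted p = 0.0338), and all 6 HS pigs were above the TN mean. The CR and LW differences were 0.03 ± 0.12 and 0.01 ± 0.11, and the pooled difference 0.12 ± 0.07 did not pass (adjusted p = 0.179). The F1 effect minus the LW effect was 0.30 ± 0.16 (adjusted p = 0.262). The F1 call was lost without F1 HS pig 2, 5 or 6 or F1 TN pig 2, 3 or 4 (0.24 to 0.30). The genes closest to CASP2 were ANP32A (r = 0.82), a nuclear phosphoprotein, PSMB4 (r = 0.82), a proteasome subunit, and YWHAB (r = 0.80), a 14-3-3 protein. PSMB4 was also the gene symbol closest to CASP8 (r = 0.85), ahead of RPAP2 (r = 0.83) and SLN (r = 0.83) on A_72_P443353, and the closest gene symbols outside CASP10 for its leading probe were ACADSB, ARHGDIB and PTMA (r = 0.88 to 0.89). Probes without such a symbol reached r = 0.98 with it.

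Within breeds, the fit called 6 of the 13 caspase probes in F1 (46.2%), 5 higher and 1 lower, where 38.7% of all probes were called, 20.8% higher and 17.9% lower. The 3 CASP10 repeat probes, which are not independent readings, were among the 5 higher. In CR and LW it called 0 of 13, and 0% of all probes, although 3466 probes in CR and 3404 in LW had an unadjusted p under 0.05, of which 1 and 2 were caspase probes. With array brightness as a covariate no caspase probe and no other probe was called in F1, and with the erythroid covariate only CASP9 was called among caspases. The F1 count was 3 without F1 HS pig 5 and 2 without F1 HS pig 6. The breed by climate interaction was called for 0% of all probes, and 5807 had an unadjusted p under 0.05. Of the caspases these included CASP8 A_72_P443353 (adjusted p = 0.279) and CASP9 (adjusted p = 0.297), and the smallest adjusted p among all probes was 0.278. The F1 calls are therefore not shown to differ from the effect in the other breeds.

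Between breeds, with climate corrected for, no caspase probe was differentially expressed. The background was 1.08% of all probes for CR minus LW, 0.184% for F1 minus CR and 0.0256% for F1 minus LW. Before adjustment 4 caspase probes passed for CR minus LW: CASP1 O11884 was higher in CR by 0.33 ± 0.14 (adjusted p = 0.332), and the non-repeat CASP10 probes had -0.29 (A_72_P725243), -0.37 (A_72_P773508) and -0.34 (A_72_P773513), with adjusted p of 0.391 to 0.418. With array weights the CASP1 probe was called (0.36, adjusted p = 0.0444). No caspase probe passed before adjustment for F1 minus CR or F1 minus LW, where 4.95% and 4.48% of all probes did.

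The 6 groups could not be ranked finely. Of the 65 pairs of neighbouring groups in the order of means of the 13 probes, none differed past the threshold (smallest adjusted p = 0.116, and 1 pair had an unadjusted p under 0.05). The top and bottom groups, picked for being extremes, differed past the threshold in 7 of the 13 probes. For CASP9 these were F1 TN and F1 HS, a span of 1.21, where 38.7% of all probes were called. F1 TN was the lowest group and F1 HS the highest for CASP2, for CASP8 A_72_P443353 and for the 3 CASP10 repeat probes, and CR HS was the highest and F1 TN the lowest for CASP1 O11884 (span 0.54, adjusted p = 0.0324, where 28.5% of all probes were called). For the non-repeat CASP10 probes LW HS was the highest and CR TN the lowest group, with spans of 0.57 to 0.63 that did not pass (adjusted p of 0.212 to 0.317, where 0.148% of all probes were called).

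The other genes of the caspase pathways were taken from fixed lists, each gene by its leading probe, in the pooled comparison. Of 16 genes of the death receptor arm, 11 had a probe, and 4 were higher, none lower and 7 not called (median 0.16, against 0.06 over all probes). These 4 calls of 11 stand beside 34.8% of all probes called in the same comparison, so the share is near the background. They included CRADD, the CASP2 adaptor (0.36 ± 0.08, adjusted p = 0.00226), RIPK1, a death domain kinase (0.37 ± 0.10, adjusted p = 0.00501), and FADD, the CASP8 adaptor (0.29 ± 0.07, adjusted p = 0.00510, with 3 of its 4 probes called). CFLAR, the catalytically inactive relative of CASP8, had -0.24 ± 0.10 on its leading probe (adjusted p = 0.0575) and a positive value on its 4 other probes, 1 of which was called.

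Of 9 genes of the apoptosome and inhibitor of apoptosis list, 8 had a probe, with 1 higher, 1 lower and 6 not called (median 0.12). Over all probes 20.1% were called higher and 14.7% lower, so these counts are not a result about the list. BIRC2, an inhibitor of apoptosis and ubiquitin ligase, was lower (-0.42 ± 0.14, adjusted p = 0.0200), and CYCS, cytochrome c, was higher on its leading probe (0.38 ± 0.14, adjusted p = 0.0336) with 9 of its 13 probes positive. XIAP, the direct inhibitor of CASP9, had 0.16 ± 0.10 (adjusted p = 0.190). APAF1 had no probe of that name.

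Of 15 inflammasome genes, 7 had a probe, with 1 higher, 1 lower and 5 not called (median -0.08). As over all probes 20.1% were called higher and 14.7% lower, these counts are near the background. NLRP1, a sensor that activates CASP1, was higher (0.25 ± 0.10, adjusted p = 0.0494) and IL1A was lower (-0.23 ± 0.07, adjusted p = 0.0155). The CASP1 substrates did not pass: IL1B had -0.15 ± 0.15 (adjusted p = 0.450), IL18 -0.33 ± 0.30 (adjusted p = 0.394) and GSDMD -0.04 ± 0.05 (adjusted p = 0.535, well above background on 13 of 35 arrays). PYCARD had no probe of that name. Of 15 further cleavage targets 9 had a probe, and PARP1, the DNA repair enzyme cut in apoptosis, was the single call (0.27 ± 0.09, adjusted p = 0.0227, list median 0.09). This single call stands beside 34.8% of all probes called in the same comparison.

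Blood cell markers were read in the same comparison, where 34.8% of all probes were called, 20.1% higher and 14.7% lower. Of 17 erythroid genes found among 24, 9 were lower, 1 higher and 7 not called (median -0.72), with EPB42, a membrane skeleton protein of red cells, at -0.92 ± 0.20 (adjusted p = 0.00198). HBB, beta globin, had -0.13 ± 0.09 (adjusted p = 0.243), and all 17 leading probes were well above background on at least 34 of the 35 arrays. T cell genes included 3 higher of 7, among them CD5 (0.45 ± 0.12, adjusted p = 0.00577) and CD4 (0.31 ± 0.10, adjusted p = 0.0149). The leading probes of CD3D (0.10 ± 0.15), CD3E (0.10 ± 0.12), LCK (0.15 ± 0.08) and CD3G (-0.11 ± 0.19) were not called. Of all probes of these genes, 2 of 3 were called for CD3D and 2 of 4 for LCK. B cell genes included 2 higher of 5, MS4A1 (0.38 ± 0.14, adjusted p = 0.0344) and CD79B (0.35 ± 0.14, adjusted p = 0.0445). Monocyte genes included 2 higher of 6, CSF1R (0.51 ± 0.11, adjusted p = 0.00159) and VCAN (0.48 ± 0.16, adjusted p = 0.0228). The leading probes of CD14 (-0.10 ± 0.17), LYZ (-0.14 ± 0.31), CD163 (0.24 ± 0.21) and FCGR1A (0.05 ± 0.10) were not called, though 1 of the 2 FCGR1A probes was. Of 6 cytotoxic genes KLRK1 was lower (-0.75 ± 0.29, adjusted p = 0.0437), and none of 8 neutrophil genes (median -0.31) or 7 platelet genes (median 0.19) was called. Over the 35 arrays the CASP1 probes had r = 0.76 and 0.82 with the mean of the monocyte genes. With the T cell mean, r was 0.68 to 0.75 for the CASP10 repeat probes and 0.24 to 0.32 for the other set. CASP8 A_72_P228337 had r = 0.71 with the B cell mean. In F1 the T cell mean was higher under HS by 0.38 (two-sided exact permutation test, p = 0.0173, adjusted p = 0.146). The part of cell composition in the caspase differences was not tested beyond the erythroid covariate.

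**Figure D5:**
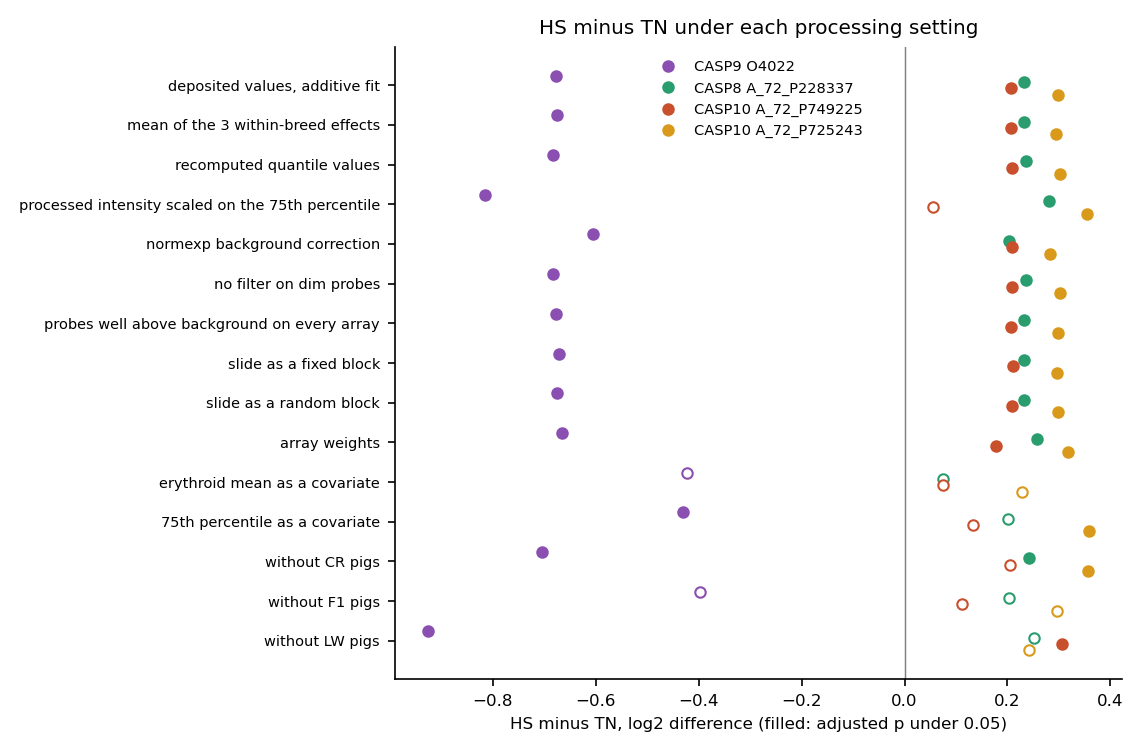
Pooled HS minus TN log2 difference of CASP9, CASP8 A_72_P228337 and CASP10 A_72_P749225 and A_72_P725243 (colours) under each processing setting (1 line per setting). Filled circles have an adjusted p under 0.05 and open circles do not; CASP9 stays between -0.93 and -0.40 and is open in 2 of the 15 settings.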

How the data were processed

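Blood RNA collected in PAXgene tubes was labelled with Cy3 and hybridised to porcine Agilent 8x60K arrays. The scanner files deposited by the authors hold spot intensity from Agilent Feature Extraction 10.10.1.1. The deposited table holds log2 values that, per the authors' methods, were quality filtered and quantile normalised. Here the table was analysed with limma 3.58.1 in R 4.3.3 (lmFit, eBayes, Benjamini-Hochberg over 39072 probes, adjusted p under 0.05, two-sided). The pooled HS minus TN and breed effects came from breed plus climate, and all other contrasts from the 6 group means. The random terms of the study's model (pen, slaughter day, parents) could not be fitted, as no label gives them. Quantile normalisation recomputed from the raw median intensity correlated with the deposited log2 values at r = 1.00, with a median absolute difference of 0.02.

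Groups came from the sample titles; replicate numbers follow deposition order and pair nothing. Quantile normalisation forces equal distributions, so differences are relative to the rest of the array. No spot was saturated. Pathway and marker genes were matched by symbol, or by transcript accession through RefSeq, and a gene's leading probe is its brightest on average. Named genes were all members, the 2 smallest p past the threshold per list, 8 set genes, and the 3 closest correlates of each leading probe. Some blood cell markers that were not called are named as well. A few items that this rule names are not reported here. Members and lists were chosen with earlier results of these data known. The fitting code was run on simulated data with known changes, drawn independently for each probe and array. That run does not bear on variation shared between probes, pens or litters. The number of arrays limits the precision. Alternatives covered values, scaling, background correction, filters, slide, array weights, covariates, breeds and single arrays.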

Additional observations from a re-analysis of the deposited data

Results flagged for a closer look

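A single value of the caspase probes stood apart from its group. For CASP8 A_72_P146716, LW HS pig 5 had a normalised log2 intensity of 8.08, while the 5 other pigs of the group lay between 7.39 and 7.53. This was 1 of 78 combinations of probe and group examined for a pig far from the others, where chance alone gives about 5% of groups. The probe was not called in any comparison.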

How the results depend on the processing

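All pooled caspase differences kept their sign in every alternative run. The 6 calls in HS minus TN became 0 with the erythroid covariate, 2 with array brightness as a covariate, 0 without F1 pigs and 3 with gene means (of 5 genes), and 2 to 7 when single pigs were left out. The 6 calls within F1 became 1 with the erythroid covariate, 0 with array brightness, and 2 to 6 when single pigs were left out. For CR minus LW, array weights gave 1 call. The cause was not tested. Over all probes, the HS minus TN count went from 13601 to 2 with the erythroid covariate, 6706 with array brightness and 0 without F1 pigs, and the F1 count from 15108 to 3592 and 0 with these covariates. Array weights gave 1111 calls in LW against 0, 1524 for CR minus LW against 421 and 152 for F1 minus CR against 72. The erythroid covariate gave 778 for CR minus LW, and array brightness 109 for F1 minus CR. The 10 calls for F1 minus LW ranged from 0 to 39. No paired analysis was possible because replicate numbers were given in deposition order. Choosing probes by a match of their translation to a caspase protein was not run, as no protein sequences were at hand. By the scanner's call, all 13 caspase probes were well above background on all 35 arrays. The lowest CASP9 value, 6.62 in an F1 HS pig, was nevertheless below the array medians of the deposited values (7.13 to 7.14). Whether the CASP9 probe reads CASP9 alone was not tested.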

Other observations

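A few caspase probes carry another name in the files and were noticed after the values were seen. A probe tied to a CASP1 transcript only by its record had a pooled HS minus TN difference of 0.27 ± 0.11 (limma, adjusted p = 0.0531), the same size as the named CASP1 probes. A CASP8 probe of that kind had 0.14 ± 0.08 (adjusted p = 0.166), and it shares a stretch of at least 20 bases with A_72_P146716. Probes described as pig caspase 15 (LOC641352) and as caspase 13-like (LOC100522887) had 0.17 ± 0.07 (adjusted p = 0.0503) and 0.20 ± 0.10 (adjusted p = 0.0914). All 4 were positive and none passed the threshold.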
